A study of Mus musculus with 30 samples.

Results

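Genes that mark regions of the mouse brain, 9 in all, were followed through RNA-seq libraries of brain, kidney, liver, quadriceps femoris muscle and spleen. They were Cbln1 and Pcp2 for the cerebellum, Drd1 and Drd2 for the striatum, Tbr1 for the cortex, Doc2g and Calb2 for the olfactory bulb, and Ttr and Kl for the choroid plexus. The members were the rows whose gene identifier maps to these 9 symbols, out of 48709 genes in each deposited table. The mice were adults of strain C57BL/6, and each tissue had 3 control (wild-type, WT) libraries and 3 libraries of mice with Ctcf haploinsufficiency (Ctcf+/-), called heterozygous here, 30 libraries in all. The product of Ctcf is an architectural protein of chromatin with zinc fingers. The labels give 3 mice per genotype and tissue pieces under 30 mg, a limit smaller than a whole adult mouse brain, and do not say which part of the brain was taken. They number the libraries 1 to 3 in both genotypes without saying what a number stands for, so p-values measure the spread between these libraries.

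Each brain region holds neurons and support cells with their own transcripts, so in RNA from a piece of tissue the level of a regional marker depends on how much of that region the piece held and on how much of the transcript each cell made. In bulk samples, fewer cells of a type and less RNA per cell cannot be told apart. The cerebellum is dense in granule cells, the striatum in medium spiny neurons that carry dopamine receptors, the cortex in glutamatergic neurons, the olfactory bulb in mitral, tufted and granule cells, and the choroid plexus is the epithelium that secretes cerebrospinal fluid. Several of these genes also have known roles outside the brain, above all Ttr in hepatocytes and Kl in kidney tubules.

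Levels are CPM, that is read counts relative to the size of the library, scaled by the trimmed mean of M-values (TMM) within a tissue. Brain libraries totalled 49819907 to 131645999 counts, and the totals of all 30 libraries fell within that range. The limit that a count of 0 allows, 3 counts, lay between 0.0229 and 0.0606 CPM for brain (counting error only). One defining marker per tissue was checked (Snap25 in brain, Kap in kidney, Alb in liver, Ckm in muscle and Cd79a in spleen), and each was at least 832 CPM in all 6 libraries of its own tissue and at most 218 CPM in the 24 others. Ctcf was lower in every heterozygous library than in every WT library of the same tissue, for example 42.7 ± 1.74 against 68.8 ± 2.68 CPM in brain (SD, n = 3 each; log2 fold change -0.69, SE 0.06, adjusted p 0.0259 by the quasi-likelihood test of edgeR with Benjamini-Hochberg adjustment).

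All 9 genes were detected in every brain library, over a wide range of levels. Divided by exon length, the WT mean was 780.3 ± 186 CPM per kb for Ttr (chr18:20665250-20674324, plus strand), the thyroxine and retinol carrier of the choroid plexus. Calb2 (chr8:110137502-110168210, minus strand), which encodes the calcium-binding protein calretinin, followed at 51.7 ± 3.48 CPM per kb. Below them lay Drd2 (chr9:49340662-49407214, plus strand), a dopamine receptor of indirect-pathway striatal neurons, at 18.4 ± 3.92, and Tbr1 (chr2:61802930-61814114, plus strand), a T-box transcription factor of deep-layer cortical neurons, at 16.2 ± 1.55 CPM per kb. The means of Drd2 and Tbr1 differed by less than the SD of Drd2 but by more than that of Tbr1. The other neighbours in the order differed by more than the SD of either gene.

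Next in the order per kb came Drd1 (chr13:54051186-54055658, minus strand), the dopamine receptor of direct-pathway striatal neurons, at 12.7 ± 1.04 CPM per kb. Cbln1 (chr8:87468405-87472609, minus strand), a secreted synapse organizer made by cerebellar granule cells, had 7.58 ± 1.63 CPM per kb. Kl (chr5:150952607-150993817, plus strand), which encodes the FGF23 co-receptor klotho, had 3.05 ± 0.867 CPM per kb. Doc2g (chr19:4003321-4007005, plus strand), a C2-domain gene whose transcript marks tufted and mitral cells, had 0.899 ± 0.380 CPM per kb. Lowest was Pcp2 (chr8:3623371-3625545, minus strand), a Purkinje cell gene, at 0.174 ± 0.0785 CPM per kb (SD, n = 3 for each gene). Positions follow the deposited annotation columns (GRCm38). Exons of Pcp2, Doc2g and Ttr overlap those of Pet100, Gm49405 and Gm16090, and because fragments were counted without regard to strand their values are uncertain to that extent.

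**Figure D1:**
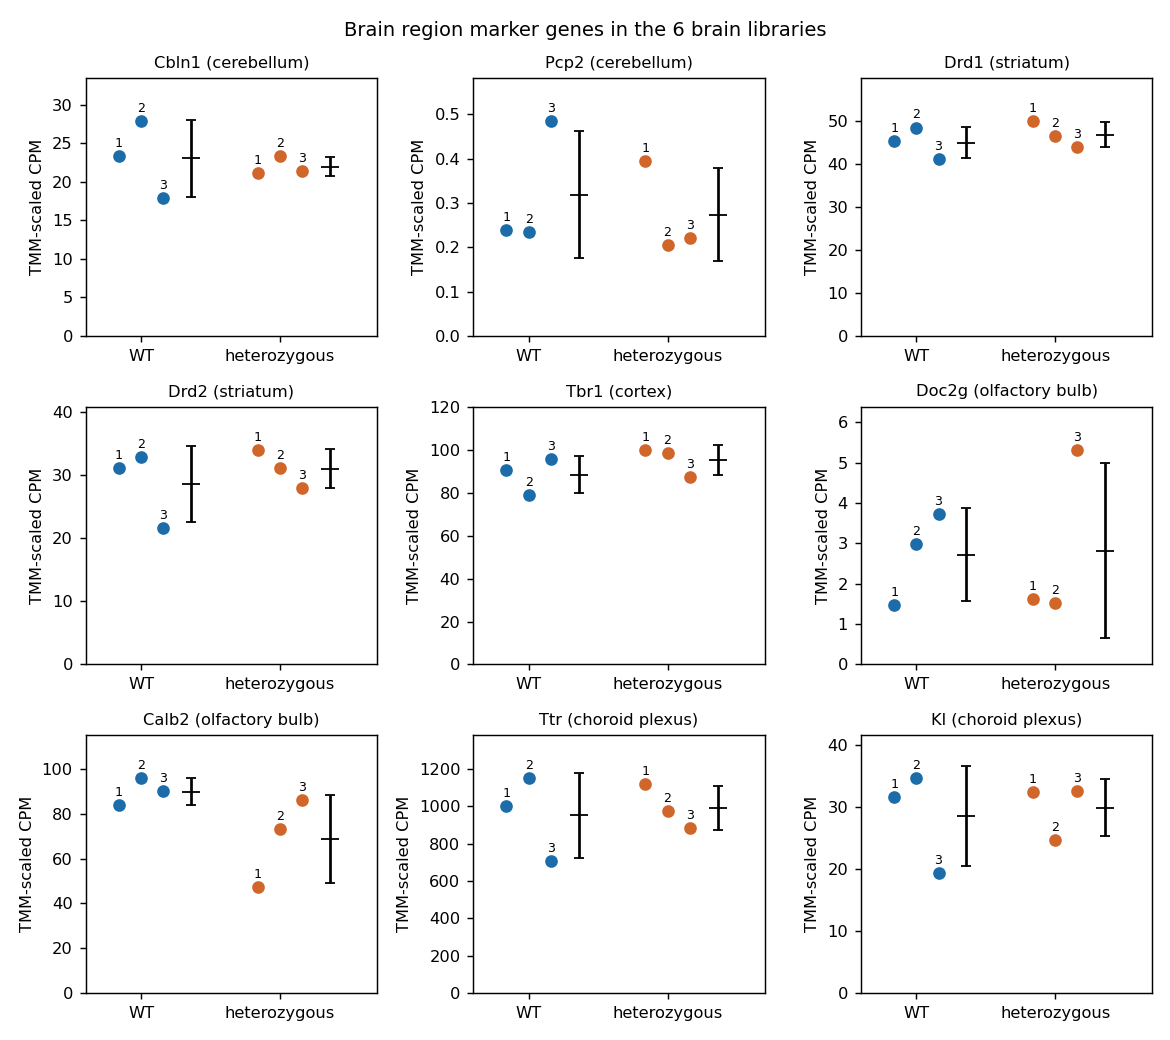
TMM-scaled CPM of the 9 genes in the 6 brain libraries, 1 panel per gene, with WT in blue, heterozygous in orange, the replicate number above each point, and the mean with its SD beside each group (n = 3). The groups overlap in all 9 panels, and WT replicate 3 is the lowest of 6 libraries in 5 of them.

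The cerebellar label held only weakly in these libraries. WT libraries 1, 2 and 3 had 0.238, 0.234 and 0.485 CPM of Pcp2, and the heterozygous libraries had 0.395, 0.206 and 0.220 CPM. These rest on 15 to 27 counts per library. Gabra6, the GABA-A receptor subunit of cerebellar granule cells, which was picked out after its values were seen, had 0.0778 to 0.384 CPM. The other cerebellar gene of the 9, Cbln1, was well above these levels, at 23.3, 27.8 and 17.9 CPM in WT and 21.2, 23.4 and 21.4 CPM in heterozygous libraries. Of the list of 12 further cerebellar markers the most abundant were Rgs8, a regulator of G-protein signalling also expressed in striatum, at 129 to 149 CPM, and Zic1, a zinc-finger factor also expressed outside the cerebellum, at 28.5 to 49.9 CPM.

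Brain levels were compared by replicate number in a fit that kept genotype as a term, testing the number as a whole. Of the 9 genes, 3 passed at an adjusted p under 0.05 (edgeR quasi-likelihood F-test, Benjamini-Hochberg over 19166 genes), where 10.6% of all genes tested did. They were Doc2g (adjusted p 0.00940), Drd2 (adjusted p 0.0352) and Ttr (adjusted p 0.0406). With 1 library left out, 2 genes (without WT replicate 3) to 6 (without heterozygous replicate 2) were called, with 5 without WT replicate 1 and 5 without heterozygous replicate 3. Replicate 3 stood apart from the other numbers. Between replicates 2 and 1 none of the 9 genes was called by edgeR, with 1 at an unadjusted p under 0.05 (Calb2, p 0.00977), against 0.266% of all genes called. Replicate 3 against 1 gave 4 called of 9 against 7.39% of all genes, and replicate 3 against 2 gave 4 of 9 against 13.4%. The median log2 difference of the 9 genes was -0.16 for replicate 3 against 1 and -0.16 for 3 against 2, where that of all genes tested was -0.01 in both.

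Olfactory bulb transcripts were high in both libraries numbered 3. Doc2g had 1.46, 2.99 and 3.71 CPM in WT libraries 1, 2 and 3 and 1.62, 1.51 and 5.32 CPM in the heterozygous ones. The highest values of each genotype were those of replicate 3, and WT replicate 2 lay above both heterozygous libraries 1 and 2. With genotype in the fit, Doc2g was 1.57 higher on the log2 scale in replicate 3 than in 1 (SE 0.28, adjusted p 0.00755) and was 1.08 higher in replicate 3 than in 2 (SE 0.27, adjusted p 0.0220, edgeR). Without heterozygous replicate 3, Doc2g was no longer among the genes called by replicate number. Calb2 had 83.9, 96.0 and 90.3 CPM in WT and 47.4, 73.2 and 86.2 CPM in heterozygous libraries 1, 2 and 3. Its lowest value by far was heterozygous replicate 1, and its difference between replicates 3 and 1 was 0.48 (SE 0.13, adjusted p 0.0455).

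Further olfactory bulb markers followed Doc2g. Of 7 such genes 5 were called by replicate number, and the same 5 were called higher in replicate 3 than in 1 and than in 2. Eomes, a T-box factor of mitral and tufted cells, had 0.509, 1.44 and 2.28 CPM in WT and 0.190, 0.535 and 3.01 CPM in heterozygous libraries 1, 2 and 3. Replicates 3 and 1 differed by a log2 value of 3.05 (SE 0.42, adjusted p 0.00167 by edgeR). Cdhr1, a protocadherin-related gene of mitral and tufted cells, had 7.44, 12.8 and 15.04 CPM in WT and 6.24, 7.54 and 19.0 CPM in heterozygous libraries, a difference of 1.34 (SE 0.19, adjusted p 0.00215). In all of Doc2g, Eomes and Cdhr1 both replicate 3 libraries were above the other 4. Tbx21, another T-box factor of these cells, Sp8, a factor of bulb interneurons, and Scgn, a calcium-binding protein gene of bulb interneurons, differed by 1.60, 0.96 and 1.32 (SE 0.40, 0.20 and 0.27, adjusted p 0.0311, 0.0149 and 0.0131). The summed level of the 7 genes was 37.4 and 47.2 CPM in replicate 3, 38.7 CPM in WT replicate 2 and 25.2 to 27.3 CPM in the other 3 libraries, where Tpbg, picked out after its values were seen, which did not pass the test (adjusted p 0.543), held 13.0 to 16.4 CPM of it.

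Striatal transcripts were lowest in replicate 3. Drd2 had 31.2, 32.9 and 21.6 CPM in WT and 34.0, 31.1 and 27.9 CPM in heterozygous libraries 1, 2 and 3. Both replicate 3 libraries lay below the other 4, WT further than heterozygous. Replicates 3 and 1 differed by a log2 value of -0.40 (SE 0.10, adjusted p 0.0321, edgeR), and that between 3 and 2 was -0.37 (SE 0.10, adjusted p 0.0276). Drd1 had the same order at smaller size, with 45.3, 48.4 and 41.1 CPM in WT and 49.9, 46.4 and 44.0 CPM in heterozygous libraries, and its difference of -0.16 between replicates 3 and 1 (SE 0.08, adjusted p 0.223) did not pass. Of 10 further striatal markers 4 were called by replicate number, all 4 lower in replicate 3 than in 1.

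The 4 striatal genes were Adora2a, the adenosine receptor of indirect-pathway neurons, Rgs9, a brake on dopamine receptor signalling, Ppp1r1b, which encodes the dopamine signalling protein DARPP-32, and Scn4b, a sodium channel subunit. Adora2a had 63.3, 57.0 and 39.6 CPM in WT and 62.0, 53.1 and 50.4 CPM in heterozygous libraries 1, 2 and 3, lowest in both replicate 3 libraries, and differed by -0.48 on the log2 scale between replicates 3 and 1 (SE 0.10, adjusted p 0.0142 by edgeR). For Rgs9, Ppp1r1b and Scn4b the same difference was -0.39, -0.36 and -0.35 (adjusted p 0.0109, 0.0315 and 0.0109).

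**Figure D2:**
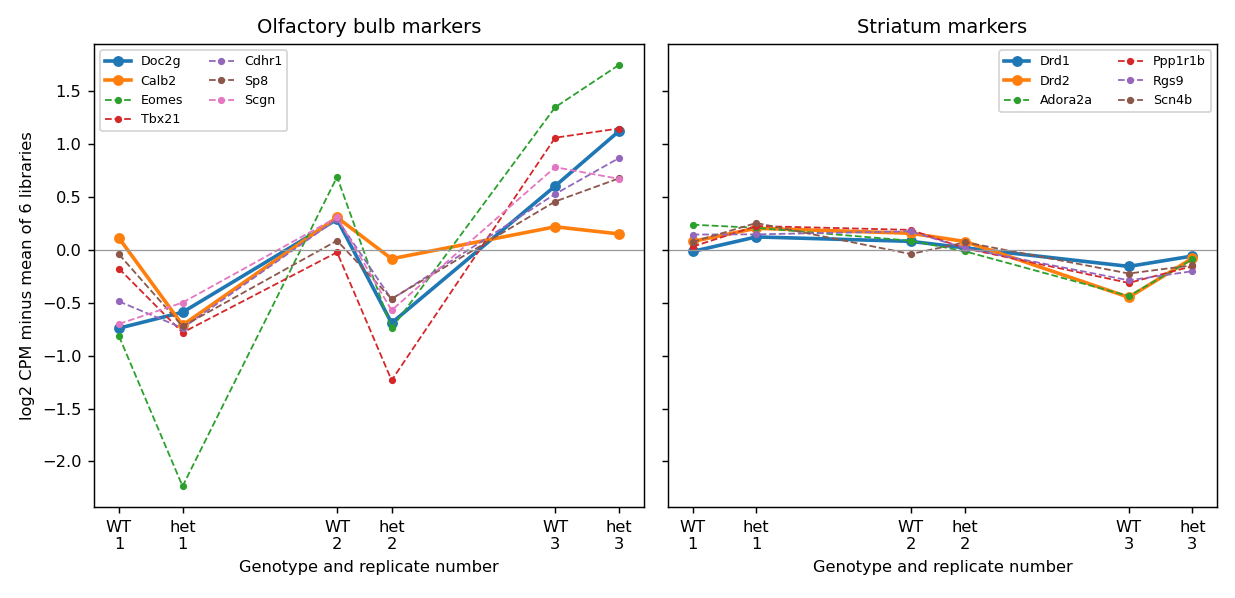
Log2 CPM of olfactory bulb markers (left) and striatal markers (right) in each brain library, less the gene's mean over the 6 libraries, ordered by replicate number with WT before heterozygous. Solid lines are members of the 9 genes and dashed lines further markers called by replicate number, and lines only join the points of a gene. At replicate 3 the bulb genes lie above 0 and the striatal genes below it in both genotypes.

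Of the choroid plexus genes Ttr was lowest in the libraries numbered 3. Ttr had 999.7, 1149.6 and 704 CPM in WT and 1118, 973 and 886 CPM in heterozygous libraries 1, 2 and 3. WT replicate 3 was the lowest, and heterozygous replicate 3 came next. Ttr was lower in replicate 3 than in 1 by a log2 difference of -0.42 (SE 0.11, adjusted p 0.0429, edgeR) and than in 2 by -0.42 (SE 0.11, adjusted p 0.0271). Without WT replicate 3, neither Ttr nor Drd2 was called by replicate number, and Ttr was not called by DESeq2 or with at least 10 counts in every library either. Kl had 31.5, 34.6 and 19.3 CPM in WT and 32.4, 24.6 and 32.5 CPM in heterozygous libraries, low in WT replicate 3 but not in heterozygous replicate 3, and its adjusted p by replicate number was 0.566. None of 14 further choroid plexus markers was called by replicate number by edgeR, also none at an unadjusted p under 0.05, among them Enpp2 (452 to 694 CPM), which encodes the lysophospholipase autotaxin and is also expressed by oligodendrocytes, and Clic6 (19.5 to 29.0 CPM), a chloride channel gene. In replicate 3 against 1, 9 of the 14 were lower, with a median log2 difference of -0.20. In 3 against 2, 10 were lower, with a median of -0.17. The median of all genes was -0.01 in both. None of the 14 was called in either by edgeR, with 5 and 2 at an unadjusted p under 0.05. Of all genes, 23.5% and 28.8% had such a p.

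The cerebellar genes did not share a direction. Cbln1 was lower in replicate 3 than in 2, by a log2 difference of -0.37 (SE 0.11, adjusted p 0.0424, edgeR), but was not called by replicate number as a whole (adjusted p 0.0999). None of the 12 further cerebellar genes was called by replicate number, with 4 at an unadjusted p under 0.05. In contrast to Cbln1, 8 of the 12 were higher in replicate 3 than in 2 (median log2 difference 0.15) and 8 than in 1 (median 0.25), where the median of all genes was -0.01 in both. Of these Car8, a carbonic anhydrase-related gene of Purkinje cells, was called in replicate 3 against 2 (0.40, SE 0.12, adjusted p 0.0491 by edgeR). Tbr1 had 90.9, 79.2 and 95.7 CPM in WT and 100.2, 98.8 and 87.3 CPM in heterozygous libraries, with no common order of the replicate numbers in the 2 genotypes (adjusted p 0.725). Of 10 further cortical markers 3 were called by replicate number: Emx1, a homeobox factor of the dorsal forebrain, Rasgrf2, an exchange factor of upper cortical layers, and Mef2c, a transcription factor of cortical neurons, each higher in replicate 3 than in 2 by 0.31, 0.36 and 0.42 on the log2 scale (SE 0.09 each for Emx1 and Mef2c and 0.10 for Rasgrf2, adjusted p 0.0453, 0.0306 and 0.0134). Slc17a7, the vesicular glutamate transporter and the most abundant of that list at 1015 to 1206 CPM, was not called (adjusted p 0.937). The cortical list as a whole had no common direction. Of its 10 genes 5 were higher and 5 lower in replicate 3 than in 2 (median log2 difference 0.06). Against replicate 1, 3 were higher and 7 lower in replicate 3 (median -0.04), with none called.

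Markers of other tissue components were also called by replicate number in brain, where 10.6% of all genes were. All 5 red blood cell genes were called: Hbb-bs, a beta-globin gene, had 125 and 136 CPM in the libraries numbered 1 and 174 to 201 CPM in the other 4, and the list summed to 219.5 to 352 CPM in WT and 244 to 346 CPM in heterozygous libraries. The pituitary hormone genes Prl and Gh were called too but were high in 1 library alone, WT replicate 2, Prl at 15.8 CPM and at most 1.23 CPM elsewhere, Gh at 8.60 CPM and at most 1.25 CPM elsewhere. The pituitary list summed to 25.5 CPM there and to 3.77 CPM in heterozygous replicate 2. Among hypothalamus markers 4 of 10 were called, among hippocampus, thalamus and neuron markers 1 of 4, 1 of 4 and 1 of 6, among microglia markers 2 of 4, and among meninges and fibroblast markers 2 of 7. All 4 hippocampus markers were lower in replicate 3 than in 1 and than in 2. Their median log2 difference was -0.37 in both, with 1 and 2 called. None of 5 ependyma, 5 astrocyte and 6 oligodendrocyte markers was called by edgeR, with 0, 0 and 2 at an unadjusted p under 0.05. Of 8 markers of monoamine nuclei 7 were tested and of 6 hindbrain markers 1, with none called and 1 and 0 at an unadjusted p under 0.05. The part of dissection, of blood in the tissue or of any other step in these shifts was not tested.

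Promoter sequences of genes whose levels moved together with the replicate number are shown so that the windows can be compared, from RefSeq on GRCm38.p6. RefSeq promoter windows were matched for 6 of the 9 genes (Pcp2, Drd1, Drd2, Tbr1, Doc2g and Kl). Shown are the 250 bases before the listed start of Doc2g (chr19:4003135-4003384, plus strand), Cdhr1 (chr14:37098348-37098597, minus strand) and Eomes (chr9:118477939-118478188, plus strand), all higher in replicate 3, and of Drd2 (chr9:49340153-49340402, plus strand), lower in replicate 3, with its paralogue Drd1 (chr13:54055659-54055908, minus strand). Capitals mark CG dinucleotides.
Doc2g: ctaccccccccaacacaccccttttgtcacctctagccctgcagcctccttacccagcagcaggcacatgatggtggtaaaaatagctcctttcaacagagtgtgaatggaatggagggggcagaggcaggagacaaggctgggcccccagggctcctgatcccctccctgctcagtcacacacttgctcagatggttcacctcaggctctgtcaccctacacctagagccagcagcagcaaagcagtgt
Cdhr1: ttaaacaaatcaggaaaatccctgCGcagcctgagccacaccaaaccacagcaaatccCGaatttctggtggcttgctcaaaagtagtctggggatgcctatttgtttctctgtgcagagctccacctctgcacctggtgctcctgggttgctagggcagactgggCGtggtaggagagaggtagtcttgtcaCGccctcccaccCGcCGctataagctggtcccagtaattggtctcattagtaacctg
Eomes: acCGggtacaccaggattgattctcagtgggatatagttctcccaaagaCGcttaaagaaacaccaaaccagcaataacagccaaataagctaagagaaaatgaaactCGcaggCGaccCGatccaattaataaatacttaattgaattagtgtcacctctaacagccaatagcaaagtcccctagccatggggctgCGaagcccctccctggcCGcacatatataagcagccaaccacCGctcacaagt
Drd1: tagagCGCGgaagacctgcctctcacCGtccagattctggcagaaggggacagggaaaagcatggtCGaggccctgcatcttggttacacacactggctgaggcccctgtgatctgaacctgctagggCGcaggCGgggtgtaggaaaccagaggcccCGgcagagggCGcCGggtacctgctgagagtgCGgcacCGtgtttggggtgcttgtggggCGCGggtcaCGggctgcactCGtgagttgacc
Drd2: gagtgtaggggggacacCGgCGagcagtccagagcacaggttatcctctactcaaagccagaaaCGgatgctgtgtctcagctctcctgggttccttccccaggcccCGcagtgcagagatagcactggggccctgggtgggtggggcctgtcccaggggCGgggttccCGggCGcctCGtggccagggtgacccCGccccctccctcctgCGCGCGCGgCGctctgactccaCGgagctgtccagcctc
These windows differed in base composition. Doc2g held 0 CG dinucleotides, Cdhr1 6 and Eomes 8, where the median of all 32851 windows of this length was 6, and Drd1 and Drd2 held 15 each, just under the upper quartile of 16. GC content was 57.6%, 53.2% and 46.4% for the first 3 and 64% and 68.8% for the dopamine receptors, against a median of 52.4%. Searched on both strands, the T-box motif AGGTGTG had no match in the 5 windows, where 5.1% of all windows held it. A core motif of CTCF had no match in them either, where 2.08% of all windows held it. The exact letters TATAAA, a spelling of the TATA box, were likewise not found there, where 12.4% of all windows held them. Variant spellings of the TATA box were not searched for.

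In brain no gene of the 9 was called heterozygous against WT by edgeR, also none at an unadjusted p under 0.05, where 0.0157% of 19166 genes were called and 2.96% had an unadjusted p under 0.05. The 2 groups overlapped for all 9 genes, where 7.83% of all genes tested did not overlap. Log2 fold changes were -0.07 for Cbln1 (SE 0.14), -0.22 for Pcp2 (SE 0.40), 0.06 for Drd1 (SE 0.08), 0.12 for Drd2 (SE 0.15), 0.11 for Tbr1 (SE 0.09), 0.05 for Doc2g (SE 0.52), -0.39 for Calb2 (SE 0.19), 0.06 for Ttr (SE 0.17) and 0.06 for Kl (SE 0.21). Their median was 0.06, and that of all genes -0.0043. The widest error was that of Doc2g, whose SD among heterozygous libraries was 2.16 CPM around a mean of 2.82 CPM, and its sign turned with the replicate number as a block (-0.11, SE 0.23, adjusted p 0.974).

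Calb2 came nearest to the threshold in brain. Its mean was 90.1 ± 6.06 CPM in WT and 68.9 ± 19.8 CPM in heterozygous libraries (SD, n = 3; p 0.0742, adjusted p 1.0 by edgeR). Heterozygous replicate 1, at 47.4 CPM, was the lowest, and without it the log2 fold change went from -0.39 to -0.17. With the replicate number as a block its difference was -0.42 (SE 0.11, p 0.00176, adjusted p 0.255), still not called. Of the further regional markers 0 of 12 cerebellar, 0 of 10 striatal, 0 of 10 cortical, 0 of 7 olfactory bulb and 0 of 14 choroid plexus genes were called by genotype by edgeR, with none at an unadjusted p under 0.05. With the replicate number as a block none was called either, with 2, 1, 0, 0 and 1 at an unadjusted p under 0.05. Ependymal cells line the ventricles beside the choroid plexus, and of 5 of their markers none was called but 4 had an unadjusted p under 0.05, all lower in heterozygous libraries (Ccdc153, Tmem212, Rarres2 and Dynlrb2, picked out after their values were seen, log2 fold changes -0.44, -0.57, -0.30 and -0.51). The 4 thalamus markers summed to 100.4 to 115 CPM in WT and 144 to 154 CPM in heterozygous brain, without overlap, and none was called, with 2 at an unadjusted p under 0.05. Of these Prkcd, a thalamic kinase gene picked out after its values were seen, was called only with the replicate number as a block (0.63, SE 0.05, adjusted p 3.89e-04 by edgeR, against 0.392 without).

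Of the 9 genes 3 spanned at least 1 on the log2 scale over the brain libraries, and for these the genes with the most similar profile were sought among 13547 named genes with a mean of at least 1 CPM, by Pearson's r of log2 CPM over the 6 libraries, as a description. Doc2g was most like Tll1 (r 0.99), a secreted metalloproteinase gene with 1.99 to 2.89 CPM. Jmjd8 (r 0.99, 18.7 to 20.5 CPM) and Bub3 (r 0.98, 69.7 to 80.7 CPM), a mitotic checkpoint gene, came next. All 3 spanned a smaller fold range than Doc2g, which had 1.46 to 5.32 CPM. Calb2 was most like Wdr6 (r 0.99), at 155 CPM in heterozygous replicate 1 and 194 to 225 CPM in the other libraries, Zcchc12 (r 0.99) and Epb41l4a (r 0.98). Pcp2 was most like Olfr287 (r 0.99), an olfactory receptor gene with 4.98 to 5.57 CPM, A2ml1 (r 0.98) and Diaph3 (r 0.97), a formin gene. All points share the same libraries and depth. These r values are the highest of 13547 candidates over 6 points, so no relation between genes is drawn from them.

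Outside brain, 6 of the 9 genes had their highest WT level in brain, namely Cbln1, Pcp2, Drd1, Drd2, Tbr1 and Calb2. Ttr was highest in liver, Kl in kidney and Doc2g in spleen. Levels of different tissues were set on 1 scale by a TMM fit of the 15 WT libraries, in which the median gene lay 0.15, 0.19 and 0.13 above 0 on the log2 scale for brain against liver, muscle and spleen, and -0.02 for brain against kidney. In that fit 8, 8, 8 and 9 of the 9 genes were called between WT brain and WT kidney, liver, muscle and spleen, where 71.4%, 73.2%, 72.3% and 79.8% of 22933 genes were called. These counts are a description, since most of the 9 genes passed the filter on low counts through brain alone.

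**Figure D3:**
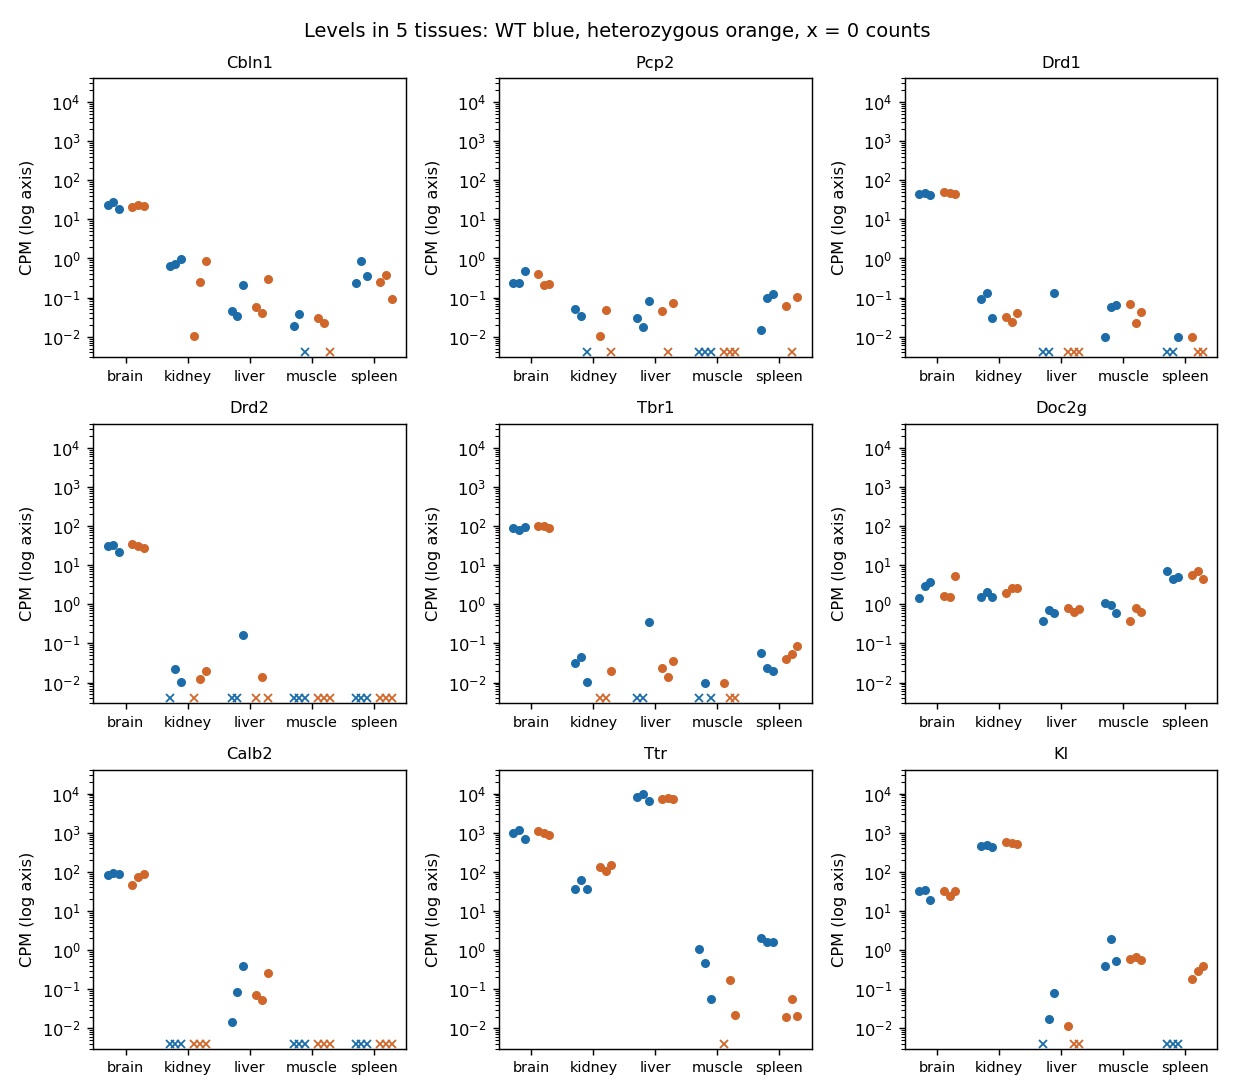
CPM of the 9 genes in all 30 libraries on a log axis, with WT in blue, heterozygous in orange and a cross for a library with 0 counts, TMM-scaled within each tissue. Calb2 has crosses in all kidney, muscle and spleen libraries, Ttr and Kl are highest in liver and kidney, and Doc2g has counts in every library, at least 0.365 CPM.

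The neuronal genes were nearly absent elsewhere. Calb2 had 0 counts in all kidney, muscle and spleen libraries, Drd2 in all muscle and spleen libraries, and Pcp2 in all muscle libraries. Cbln1 was the most widespread of them, with a WT mean of 0.777 ± 0.153 CPM in kidney and 0.480 ± 0.329 CPM in spleen (SD, n = 3). Its single libraries in heterozygous kidney ranged from 0.0106 to 0.850 CPM. In liver, WT replicate 3 held 0.131 CPM of Drd1, 0.164 of Drd2, 0.344 of Tbr1 and 0.393 of Calb2, the highest liver value for each of these 4. The same library had 11.3 CPM of the neuronal gene Snap25, which was at 0.310 to 0.674 CPM in the 5 other liver libraries, and the neuron list summed to 39.3 CPM there and 12.5 to 16.97 CPM in the others. The part of brain RNA in that library was not tested.

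Doc2g was spread over all tissues. In spleen it had 7.07, 4.34 and 4.85 CPM in WT and 5.51, 6.92 and 4.47 CPM in heterozygous libraries, above the WT mean of 2.72 ± 1.15 CPM in brain. The log2 difference of WT brain from WT spleen came to -0.90 (SE 0.35, adjusted p 0.0281 by edgeR). That call was lost in 2 of 6 fits with 1 library left out. In brain against liver Doc2g was higher by 1.23 (SE 0.37, adjusted p 0.00839), and against kidney (0.58, SE 0.35, adjusted p 0.155) and muscle (0.35, SE 0.36, adjusted p 0.388) it did not pass. With total counts in place of TMM the comparison with muscle did pass. Of the further olfactory bulb list, Eomes and Tbx21, T-box factors also known from lymphocytes, were high in spleen, at 15.996 to 33.0 CPM and 16.3 to 22.2 CPM, while Sp8 had 0 counts in all 6 spleen libraries.

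Ttr in liver stood far above brain, with 8228, 9915 and 6371 CPM in WT and 7119, 7581 and 7193 CPM in heterozygous libraries, and WT brain against WT liver was -4.17 (SE 0.60, adjusted p 1.79e-05, edgeR). Kl in kidney stood above brain by about as much in the fit of WT tissues. WT brain against WT kidney was -4.10 for Kl (SE 0.50, adjusted p 8.66e-06, edgeR). In CPM scaled within a tissue these gaps were not alike. For Ttr the WT mean was 8171 CPM in liver and 951 CPM in brain. For Kl it was 456 CPM in kidney and 28.5 CPM in brain. The log2 TMM factors of that fit were 0.47 to 0.50 in brain and 0.25 to 0.33 in kidney. In liver they were -0.76 to -0.41. Kl was near 0 in liver, at most 0.0819 CPM. Brain thus came after 1 peripheral organ for each of the choroid plexus genes.

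Outside brain, groups that did not overlap were seen among the 9 genes for Ttr and Kl alone, in kidney and spleen. In spleen Ttr had 2.03, 1.60 and 1.60 CPM in WT and 0.0200, 0.0551 and 0.0209 CPM in heterozygous libraries. All WT libraries were above all heterozygous ones, which were at or near the floor of 3 counts. The log2 fold change was -5.77 (SE 0.46, adjusted p 0.0174 by edgeR), and it was the 1 gene called of the 4 of the 9 that were tested, where 0.242% of 18615 genes were called. With 2, 4 and 2 counts in the heterozygous libraries, Ttr passed the filter on low counts through WT alone, so a difference was a condition of its being tested. Summed over libraries there were 431 counts in WT and 8 in heterozygous spleen, so WT was 57.5 times higher with a 95% exact binomial interval of 28.9 to 134, which covers counting error only. The call was lost with the replicate number as a block (adjusted p 0.257) and in 5 of 6 fits with 1 library left out, all but that without heterozygous replicate 2, with -6.32 to -5.52 on the log2 scale.

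Liver transcripts moved with Ttr in spleen. All 6 hepatocyte genes of the list were called lower in heterozygous spleen, and their sum was 33.7 to 43.2 CPM in WT and 0.340 to 0.579 CPM in heterozygous libraries, with 2 of the 6 at 0 counts in all heterozygous libraries. Alb, the albumin gene, had 30.5, 23.9 and 24.0 CPM in WT and 0.0200, 0.0689 and 0.104 CPM in heterozygous spleen, and Ahsg, which encodes the plasma protein fetuin-A, 4.46, 3.46 and 3.46 CPM in WT, and it had no count in any heterozygous library. Alb and the 2 genes at 0 counts in all heterozygous libraries, Ahsg among them, passed the filter on low counts through WT alone. A difference was thus a condition of their being tested, and they are among the 6 called. The part of these hepatocyte genes in the difference in Ttr was not tested.

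Kl in spleen went the other way. It had 0 counts in all WT libraries and 0.180, 0.289 and 0.397 CPM in the heterozygous ones, 77 counts in all. Against a floor of 3 counts per WT library that is at least 7.88-fold higher, and the groups did not overlap (p 0.000585, adjusted p 0.110 by edgeR, not called). In spleen 2 of the 9 genes, Ttr and Kl, both among the 4 tested, did not overlap between groups, where 6.64% of the genes tested did not. At 0 counts in WT spleen, Kl passed the filter on low counts there through heterozygous libraries alone. A difference was thus a condition of its being tested in the spleen fits. DESeq2, limma-voom and the fit of all 30 libraries called Kl in spleen. Kidney transcripts moved with it: of 7 kidney tubule genes 3 were called higher in heterozygous spleen (Kap, Umod and Slc12a1), and the list summed to 1.84 to 2.98 CPM in WT and 12.8 to 23.0 CPM in heterozygous libraries, with 3 of 7 at 0 counts in all WT libraries. Kap, the kidney androgen-regulated protein gene, was at 0 counts in the 3 WT libraries and at 6.89, 14.6 and 14.0 CPM in the heterozygous ones. All 7 genes of the list were tested. The 3 at 0 counts in all WT libraries, Kap among them, also passed the filter on low counts through heterozygous libraries alone. A difference was thus a condition of their being tested. Slc12a3, the sodium chloride cotransporter and the other abundant gene of the list there, had 0.962 to 2.05 CPM in WT and 1.68 to 2.78 CPM in heterozygous spleen (adjusted p 1.0). Their part in the difference in Kl was not tested.

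**Figure D4:**
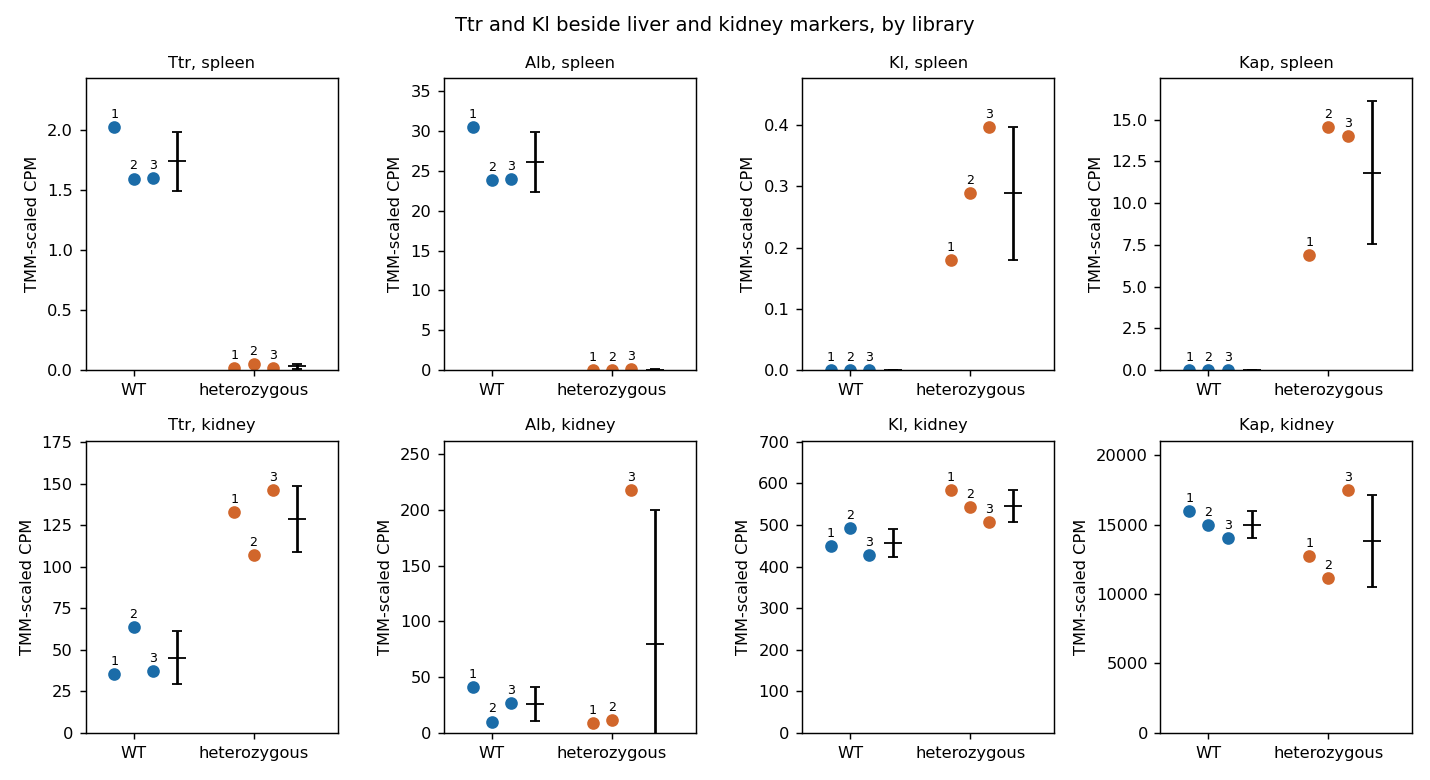
TMM-scaled CPM of Ttr, Alb, Kl and Kap by library in spleen (top) and kidney (bottom), with WT in blue, heterozygous in orange, the replicate number above each point and mean with SD (n = 3, bars end at 0). In spleen Ttr and Alb are high in the 3 WT libraries and Kl and Kap in the 3 heterozygous ones, while in kidney Ttr and Kl are higher in heterozygous libraries and Alb and Kap overlap.

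In kidney Ttr and Kl were higher in all heterozygous than in all WT libraries. Ttr had 35.6, 63.5 and 37.0 CPM in WT and 133, 107 and 146 CPM in heterozygous libraries. The groups did not overlap, a log2 fold change of 1.51 (SE 0.23, p 0.000132, adjusted p 0.132 by edgeR), which was not called. By DESeq2 (adjusted p 4.63e-09), by edgeR with every gene of at least 1 count (0.00414) and by edgeR without WT replicate 2 (0.0218) Ttr was called in kidney. Kl had 449, 492 and 428 CPM in WT and 585, 543 and 507 CPM in heterozygous libraries, higher by 0.26 on the log2 scale (SE 0.10, adjusted p 0.694). With the replicate number as a block the differences were 1.55 for Ttr and 0.26 for Kl on the log2 scale. Neither was called with the block (adjusted p 0.0708 and 0.516 by edgeR). None of the 9 genes was called in kidney by edgeR, with 3 of the 4 tested at an unadjusted p under 0.05 (Doc2g, Ttr and Kl), where 0.0211% of 18937 genes were called. Of the 9, 2 did not overlap, both among the 4 tested, where 11.4% of the genes tested did not.

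Markers of other cell types in kidney are given beside Ttr and Kl. The hepatocyte list summed to 125 to 151 CPM in WT and 62.0 to 369 CPM in heterozygous kidney, with Alb at 41.3, 10.2 and 26.7 CPM in WT and 8.79, 11.9 and 218 CPM in heterozygous libraries, and Cyp2e1, a cytochrome P450 gene, at 85.1 to 102 CPM in WT and 35.2 to 83.3 CPM in heterozygous ones, lower without overlap (log2 fold change -0.72, SE 0.27, adjusted p 0.682, edgeR). Of the 6 hepatocyte genes none was called, with 1 at an unadjusted p under 0.05. By sign 5 of the 6 were higher and 1 was lower in heterozygous kidney, with a median log2 fold change of 0.77. The kidney tubule list summed to 20562 to 22514 CPM in WT and 17755 to 24020 CPM in heterozygous libraries, and its most abundant genes, Kap and Umod, were not called (adjusted p 0.999 for both, edgeR). Calb1, the distal tubule gene for calbindin, picked out after its values were seen, had 384, 386 and 400 CPM in WT and 629, 576 and 781 CPM in heterozygous kidney. Its groups did not overlap either (log2 fold change 0.76, SE 0.12, p 0.000209, adjusted p 0.158), and the part of tubule composition in the values of Kl and Ttr was not tested. Of the 14 further choroid plexus genes 13 were tested in kidney, and none was called by edgeR. Of the 13, 10 were lower in heterozygous kidney, with a median log2 fold change of -0.09, and the 3 at an unadjusted p under 0.05 were all lower (Slc4a5, Kcne2 and F5, at -0.57, -0.92 and -1.54). The 7 meninges and fibroblast markers summed to 388 to 437 CPM in WT and 459 to 487 CPM in heterozygous kidney, without overlap, with none called and 4 higher at an unadjusted p under 0.05 (Dcn, Col1a1, Col1a2 and Aldh1a2). Of 5 mesothelium and 5 astrocyte markers none was called, with 3 of each at an unadjusted p under 0.05 in mixed directions (Wt1 and Lrrn4 higher and Krt19 lower, Gja1 higher and Gfap and Aqp4 lower), and both sums overlapped. These further genes were picked out after their values were seen, 6.44% of all genes in kidney had an unadjusted p under 0.05, and their part in the values of Ttr and Kl was not tested.

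In liver and muscle no gene of the 9 was called by genotype with edgeR, with 0 of 2 tested and 1 of 3 tested at an unadjusted p under 0.05, where 0.0193% of 15584 and 0.0249% of 16064 genes were called. The groups overlapped for all 9 genes in both tissues, where 8.99% of the genes tested in liver and 12.2% of those in muscle did not overlap. Only the 2 and 3 genes tested can be set beside these shares. In muscle 3 of the 9 had 0 counts in all 6 libraries and overlapped for that reason. Ttr in liver differed by -0.16 (SE 0.19, adjusted p 1.0). In muscle Ttr had 1.06, 0.465 and 0.0548 CPM in WT and 0, 0.173 and 0.0214 CPM in heterozygous libraries, which overlapped, with a log2 fold change of -3.06 (SE 1.22, p 0.0349, adjusted p 0.707). WT muscle replicate 1, the highest in Ttr, was also the highest in Alb, at 9.66 CPM against at most 1.46 CPM in the 5 others. Kl in muscle had 0.394, 1.87 and 0.515 CPM in WT and 0.602, 0.656 and 0.556 CPM in heterozygous libraries, and WT replicate 2, the highest in Kl, had 46.2 CPM of Kap against at most 5.83 CPM in the others. The part of liver and kidney RNA in these muscle libraries was not tested.

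**Figure D5:**
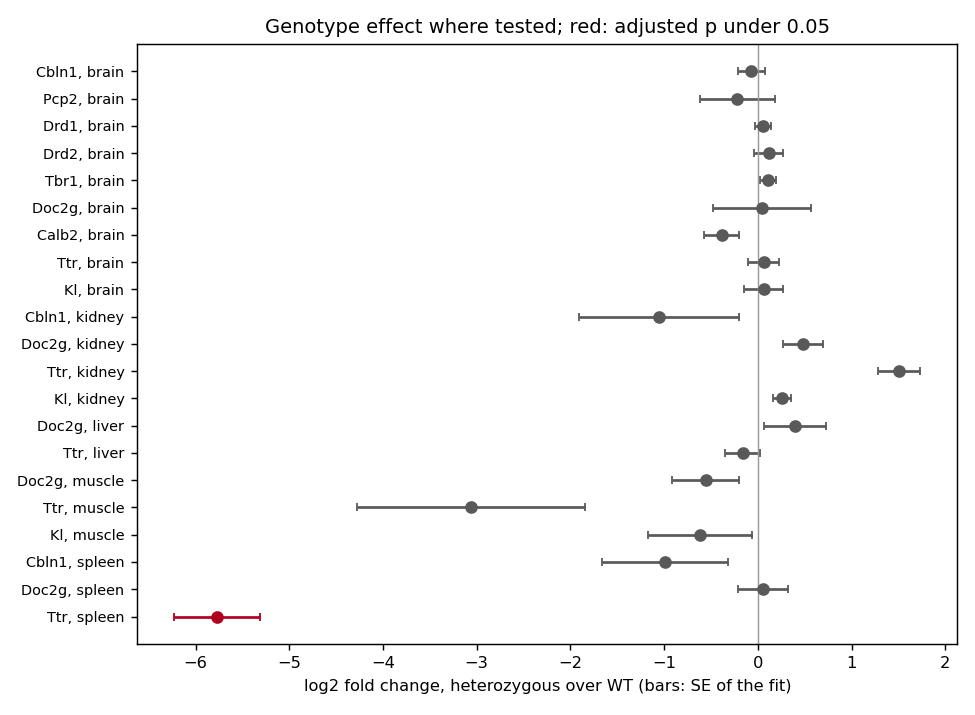
Log2 fold change, heterozygous over WT, of each of the 9 genes in each tissue where it was tested and neither group was at 0 counts, with bars of 1 SE of the edgeR fit. Ttr in spleen (red, -5.77) is called, and the 9 brain values lie between -0.39 and 0.12.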

How the data were processed

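RNA-seq read counts per gene were measured in 30 libraries of 5 tissues, 3 per genotype and tissue. The deposited counts come from featureCounts 1.5.0-p3, run by the authors on Ensembl release 86 (GRCm38) per the file headers, over exons, without strand, leaving out reads that map to several places or overlap several genes. FastQC, STAR and DESeq2 are named without versions, with GRCm38 and mm10, per the submitters' processing notes. Genes were tested with edgeR 4.0.16 in R 4.3.3 (TMM scaling, filterByExpr on the groups, quasi-likelihood F-test, Benjamini-Hochberg over all genes tested, threshold 0.05). Genotype was tested within each tissue, replicate number in brain with a genotype term, WT tissues in a fit of 15 libraries, and genotype by tissue in a fit of 30. Standard errors are the unshrunk log2 fold change divided by the square root of F. A gene with 0 counts in a whole group gets a bound against 3 counts per library, and ratios of few counts get exact binomial intervals (95%), counting error only. The scripts were tested on simulated data. DESeq2 1.42.0, limma 3.58.1 (voom), other scalings, filters, a replicate block and libraries left out were tried. No replicate pair agreed within sampling noise (chi-square per degree of freedom at least 15.4), so none was merged. Same-numbered libraries deviated together in brain (r 0.21, 0.38 and 0.54) and kidney (0.21, 0.19 and 0.21). The highest r between different numbers was 0.22 in brain, above that of number 1, and -0.04 in kidney. The numbers were taken to pair libraries in brain and kidney, but not in liver, muscle or spleen. The reported genotype fits hold no replicate term, and fits with the replicate number as a block were run beside them. The pairing comes from the data, as the labels do not say what the numbers mean. The 9 genes and the marker lists were chosen with earlier results of these data known. Named genes are the 9, up to 5 called members of each regional list by smallest p (otherwise the 2 most abundant), up to 2 most abundant of any other list, Ctcf, and the 3 most similar profiles of a member that spans at least 1 on the log2 scale in brain. Others are said to be picked out after their values were seen. Of the striatal markers 1 is not reported here and stands in no list count, though it stayed in the fits.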

Additional observations from a re-analysis of the deposited data

Results flagged for a closer look

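The heterozygous effect on Ttr differed between the 5 tissues by the genotype by tissue term of the 30-library fit (edgeR quasi-likelihood F-test, adjusted p 0.000976), with log2 fold changes of -5.77 in spleen, -3.06 in muscle, -0.16 in liver, 0.06 in brain and 1.51 in kidney. The heterozygous effect on Kl differed between tissues by the same test (adjusted p 0.0366), with 0.06 in brain, 0.26 in kidney, -0.62 in muscle and 0 counts in WT spleen. These were 2 of the 9 genes, where 0.758% of 24262 genes were called. Without the 6 spleen libraries neither was called. A replicate block left Ttr called and ended the call of Kl. With 1 library left out Ttr was called in all 30 fits, and Kl was not called in 18 of 30. These 18 left out brain WT 1, heterozygous 1 or heterozygous 3, kidney WT 1, 2 or 3 or heterozygous 2, any heterozygous liver or muscle library, spleen WT 1, 2 or 3 or heterozygous 2 or 3. The hepatocyte and kidney tubule genes that moved with Ttr and Kl in spleen are given with the spleen values, and their part was not tested.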

How the results depend on the processing

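By replicate number in brain 3 were called, 6 with every gene of at least 1 count, 1 without a genotype term, 2 (Ttr lost) with DESeq2 or at least 10 counts in every library, and 2 to 6 with 1 library left out. By genotype in kidney 0 became 1 (Ttr) with every gene of at least 1 count or DESeq2, and 0 to 1 with 1 library left out. In muscle 0 became 1 (Ttr) in the fit of all 30 libraries. In spleen 1 became 2 in that fit, with DESeq2 and with limma-voom, 0 with at least 10 counts in every library, where Ttr was not tested, and 0 to 1 with 1 library left out. For genotype by tissue 2 became 0 with at least 10 counts in every library, where neither Ttr nor Kl was tested, 0 without the 6 spleen libraries, and 1 to 2 with 1 library left out. Between WT tissues 8, 8, 8 and 9 became 0, 1, 0 and 1 (kidney, liver, muscle, spleen) with at least 10 counts in every library, a filter that drops genes near 0 outside brain, 9 against liver and 9 against muscle with total counts, and 8 to 9, 8 to 9, 8 to 8 and 8 to 9 with 1 library left out. With the replicate number as a block 0 genes were called in brain, 0 in spleen and 1 for genotype by tissue (Kl lost), and no other count of genes called changed. In brain the sign of Doc2g turned with limma-voom (-0.15) and with the block (-0.11). With 1 library left out, brain log2 fold changes that changed sign ranged from -0.22 to 0.0908 for Cbln1, -0.79 to 0.36 for Doc2g, -0.0035 to 0.11 for Drd1, -0.046 to 0.23 for Drd2, -0.15 to 0.23 for Kl, -0.54 to 0.17 for Pcp2 and -0.11 to 0.22 for Ttr, none of them called, and that of Calb2 from -0.58 to -0.17, without a change of sign. The cause of these changes was not tested. Fewer than 30 counts of Pcp2 per brain library limit its precision.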
